A study of Mus musculus with 27 samples.

Results

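The 10 genes described here, Dbp, Tef, Hlf, Per1, Per2, Per3, Ciart, Bhlhe41, Nr1d1 and Nr1d2, are clock genes whose transcription runs through E-box or D-box sequences, among 52636 gene identifiers counted in mouse brain. They were chosen by name with their fold changes between Igf2enh-/- and wild-type mice in these libraries already known, so the genotype values below are a description and carry no test. Total RNA, depleted of ribosomal RNA, was sequenced as 75 bp single-end reads from about 25 mg of tissue, pooled over 3 flow cells. The 12 frontal cortex libraries are 6 wild-type and 6 Igf2enh-/-, with 3 of each sex in both groups. Striatum came from 7 wild-type mice (3 females, 4 males) and 8 Igf2enh-/- mice (4 of each sex). These are 13 wild-type and 14 Igf2enh-/- libraries, and the design text of the series gives 14 and 13.

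All mice were on the 129S1 background, about 2.5 months old, and kept in the light from hour 7 to hour 19. The Igf2enh-/- mice are homozygous for the loss of 4.9 kb between H19 and Igf2, made in embryonic stem cells, and carry 1 loxP site where an Hprt-CRE cross removed the selection cassette, so every cell of the mouse lacks the segment. The wild-type mice carry neither. The hour at which tissue was taken is not given in the sources used here, and the labels do not say which cortex and striatum libraries share a mouse. The time of day behind each library is thus unknown, and no rhythm or phase was measured. Libraries are called below by the number that opens their label, and the p-values measure the spread between these libraries.

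The circadian clock is a loop of transcription in which CLOCK and BMAL1 (the product of Arntl) bind E-boxes and switch on their own repressors. The period proteins, the cryptochromes, CIART and the BHLHE repressors close the loop at E-boxes, and the REV-ERB receptors encoded by Nr1d1 and Nr1d2 repress Arntl. The PAR bZIP activators DBP, TEF and HLF carry the signal on to genes with D-boxes, and in tissue after tissue Dbp is among the transcripts of widest daily swing.

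RefSeq promoter windows on GRCm38.p6, from 250 bases before to 50 bases after an annotated start, held the E-box CACGTG in 4 of the 9 members with a window, Tef, Per1, Ciart and Bhlhe41, against 8.09% of 27025 genes. The D-box, TTATGTAA or TTACGTAA on either strand, was found in 1, Per3, against 1.23% of genes, and the E'-box CACGTT in 1, Nr1d1, against 5.44%. The motif TAGGTCA, the core that REV-ERB and ROR proteins share, was in none of the 9 members with a window and in 2.97% of genes. The windows of Dbp, Hlf and Nr1d2 held no E-box, E'-box or D-box, and Per2 had no window. The window of each motif type is shown for Ciart, the gene of widest genotype difference, for its fellow E-box gene Bhlhe41, and for Per1, Per3 and Nr1d1, whose relation to Dbp differs below. They are printed 5′ to 3′ on the gene's strand, with E-boxes, the E'-box and D-boxes in capitals.
Ciart, chr3:95882179-95882478, minus strand, with E-boxes that begin 116, 58 and 44 bases before the start: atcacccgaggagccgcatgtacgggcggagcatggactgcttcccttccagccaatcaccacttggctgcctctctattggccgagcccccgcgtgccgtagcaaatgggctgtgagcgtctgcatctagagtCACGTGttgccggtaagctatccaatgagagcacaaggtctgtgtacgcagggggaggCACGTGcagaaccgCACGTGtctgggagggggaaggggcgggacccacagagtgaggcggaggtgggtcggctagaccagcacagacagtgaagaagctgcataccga
Bhlhe41, chr6:145865371-145865670, minus strand, with 1 E-box: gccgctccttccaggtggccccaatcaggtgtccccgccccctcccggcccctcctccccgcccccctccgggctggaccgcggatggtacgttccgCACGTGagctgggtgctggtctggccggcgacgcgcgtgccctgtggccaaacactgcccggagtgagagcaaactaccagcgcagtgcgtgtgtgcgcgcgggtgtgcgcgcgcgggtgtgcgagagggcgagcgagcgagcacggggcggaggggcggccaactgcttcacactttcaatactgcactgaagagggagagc
Per1, chr11:69098699-69098998, plus strand, the first of 2 windows, with 1 E-box: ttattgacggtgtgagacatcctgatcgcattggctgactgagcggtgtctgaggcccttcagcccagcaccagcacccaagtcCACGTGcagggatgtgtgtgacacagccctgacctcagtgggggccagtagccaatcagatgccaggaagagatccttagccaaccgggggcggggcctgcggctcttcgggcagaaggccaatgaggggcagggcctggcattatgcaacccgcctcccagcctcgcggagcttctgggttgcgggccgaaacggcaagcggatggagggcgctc
Per3, chr4:151044616-151044915, minus strand, with 2 D-boxes: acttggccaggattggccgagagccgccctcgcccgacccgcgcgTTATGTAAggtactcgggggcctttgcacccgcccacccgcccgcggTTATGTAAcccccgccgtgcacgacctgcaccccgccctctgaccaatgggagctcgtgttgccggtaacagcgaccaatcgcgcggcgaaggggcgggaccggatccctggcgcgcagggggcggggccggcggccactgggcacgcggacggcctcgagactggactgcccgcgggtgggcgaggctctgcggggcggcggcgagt
Nr1d1, chr11:98775328-98775627, minus strand, with 1 E'-box read on the other strand: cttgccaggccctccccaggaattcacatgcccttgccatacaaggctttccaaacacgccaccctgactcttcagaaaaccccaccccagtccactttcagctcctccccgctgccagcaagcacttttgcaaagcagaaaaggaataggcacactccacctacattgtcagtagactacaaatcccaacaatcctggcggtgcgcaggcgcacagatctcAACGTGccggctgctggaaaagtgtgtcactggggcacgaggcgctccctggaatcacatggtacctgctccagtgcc
Ciart had 3 E-boxes within 300 bases, the highest number among the 11 windows of these genes. The motif letters are a description of these windows, and binding was not measured.

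Libraries held 23686945 to 33926904 counts, so 1 CPM (read counts relative to library size, scaled by TMM over all 27 libraries) stood for 23.7 to 33.9 reads. Tissue markers followed the labels. The summed level of 8 cortical projection neuron genes was 2248 to 2490 CPM in frontal cortex and 64.8 to 1234 CPM in striatum, and that of 8 medium spiny neuron genes was 148 to 223 CPM and 3173 to 8747 CPM. Striatum was the less even dissection. Wild-type library 20 had the most cortical and the least medium spiny neuron signal among the wild-type libraries of striatum, and Igf2enh-/- library 15 held 4513 CPM of 8 choroid plexus genes where the median of its group was 216 CPM. The main striatal results are also given without these 2 libraries, a setting chosen after seeing the data. Igf2, beside the deletion, had a median of 71.4 CPM in wild-type and 119 CPM in Igf2enh-/- frontal cortex.

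Per kilobase of exon, the members fell into a higher and a lower set. In wild-type frontal cortex Tef, Nr1d1 and Hlf stood at medians of 52.4, 51.8 and 50.4 CPM per kb with overlapping ranges, followed by Dbp at 35.4, Nr1d2 at 28.7 and Per1 at 27.8. Per2, Ciart, Bhlhe41 and Per3 were lower, from 9.97 down to 7.70 CPM per kb, and neighbours in that order overlapped. In wild-type striatum Dbp moved up to a median of 64.4 CPM per kb, next to Tef at 67.8, and the order from Nr1d2 downwards differed only in the place of Bhlhe41, which stood above Per2 and Ciart at 13.1.

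In both regions all 10 genes were lower in Igf2enh-/- mice, with a median log2 fold change of -0.35 in frontal cortex and -0.34 in striatum. Ciart had the largest difference in each, Dbp and Per1 came next, and Tef and Hlf had the smallest. By edgeR's quasi-likelihood test with Benjamini-Hochberg adjustment over all genes, 3 of the 10 (Ciart, Dbp and Nr1d1) were called lower in frontal cortex, where 0.251% of 13936 genes were (0.380% in either direction), and 1 of the 10 (Ciart) in striatum, where 0.0360% of 13875 genes were. Over all genes 49.6% and 49.8% had a fold change below 0. At an unadjusted p under 0.05 there were 9 of 10 in each region, beside 13.5% and 10.0% of genes. Since the genes were selected on this contrast, nothing is read from these counts. In bulk tissue, fewer cells of a type and less RNA per cell cannot be told apart.

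**Figure D1:**
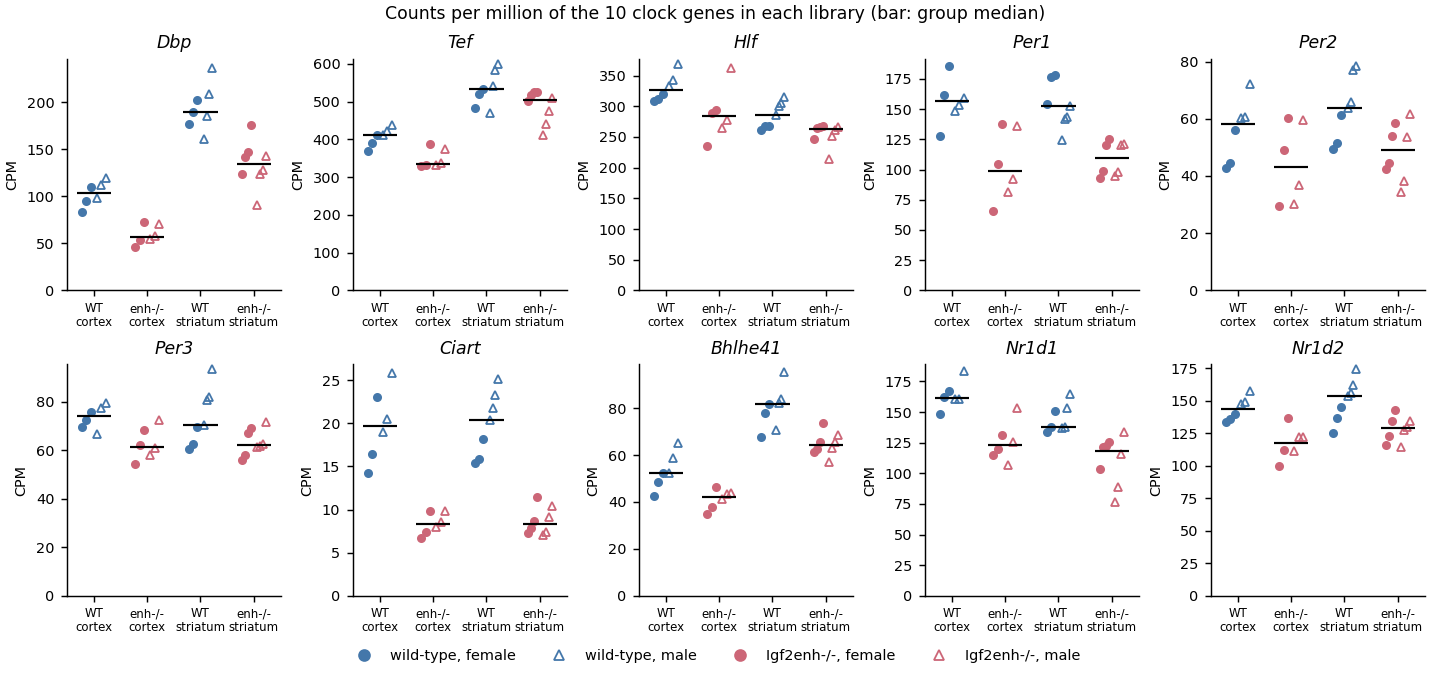
Each point is 1 library, with CPM on the y axis from 0, filled circles for females, open triangles for males, blue for wild-type, red for Igf2enh-/-, and a bar at the group median. All Igf2enh-/- points of Ciart lie below all wild-type points in both regions, and those of Dbp do in frontal cortex, while Per2 overlaps in both.

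Among the PAR bZIP activators, Dbp had the widest difference. In frontal cortex the wild-type libraries had a median of 104 CPM, the lowest at 83.4 and the highest at 119.7, and the Igf2enh-/- libraries a median of 56.3 CPM, between 45.7 and 72.7, and the groups did not overlap, which held for 2 of the 10 members and, in this direction, for 0.646% of all genes. On the log2 scale the difference was -0.80 ± 0.104 (SE). In striatum Dbp ran from 161 to 237 CPM (median 189.6) and from 91.2 to 176.5 CPM (median 135), a log2 fold change of -0.54 ± 0.113 (SE). Only library 15, the one rich in choroid plexus RNA, reached the wild-type range, and library 19 was the lowest. Without libraries 15 and 20 the striatal difference of Dbp was -0.64, that of Ciart -1.27, and the median over the members -0.38, with 10 of 10 at an unadjusted p under 0.05. Tef and Hlf differed less. Tef had log2 fold changes of -0.22 and -0.13, with 2 of 6 and 6 of 8 Igf2enh-/- libraries inside the wild-type range, and Hlf had -0.21 and -0.16, with 1 of 6 and 4 of 8 inside it.

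The 3 period genes, the core repressors of the loop, differed in how far the genotypes separated. Per1 ran from 128 to 185 CPM (median 156.5) in wild-type and from 65.8 to 137 CPM (median 98.6) in Igf2enh-/- frontal cortex, a log2 fold change of -0.60 ± 0.155 (SE), and libraries 1 and 7 were the Igf2enh-/- libraries that reached the wild-type range. In striatum its values were 124 to 178 CPM (median 153) and 93.1 to 125 CPM (median 109.6), with library 15 alone in the wild-type range and a log2 fold change of -0.49 ± 0.0857. Per2 had the most overlap of the 3 in frontal cortex. Its cortical range of 29.5 to 60.4 CPM (median 43.0) in Igf2enh-/- mice overlapped the wild-type 42.8 to 72.0 CPM (median 58.2) in 3 libraries, 1, 3 and 7, and its log2 fold change of -0.33 had a standard error of 0.184. Its striatal medians were 63.7 and 49.2 CPM, at -0.38 ± 0.137. Per3, at a log2 fold change of -0.23 and -0.20, had 2 of 6 and 6 of 8 Igf2enh-/- libraries in the wild-type range.

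Ciart, an inhibitor of CLOCK and BMAL1 and the member with 3 E-boxes, was the gene of largest fold change in both regions. It ran from 14.2 to 25.9 CPM in wild-type frontal cortex (median 19.7) and from 6.71 to 9.87 CPM in Igf2enh-/- frontal cortex (median 8.29). Striatal values were nearly the same, 15.5 to 25.2 CPM (median 20.4) and 7.07 to 11.4 CPM (median 8.29). No Igf2enh-/- library reached the lowest wild-type library in either region, a pattern that 0.646% of all genes had in frontal cortex and 0.130% in striatum. The log2 fold changes were -1.24 ± 0.127 (SE) and -1.18 ± 0.123, which is 0.423 and 0.442 of the wild-type level. Bhlhe41, an E-box repressor of the basic helix-loop-helix family, was lower by less, at -0.37 and -0.30, with 3 of 6 and 2 of 8 Igf2enh-/- libraries in the wild-type range.

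The REV-ERB genes Nr1d1 and Nr1d2, repressors of Arntl, differed from each other more in striatum than in frontal cortex in point estimate. Nr1d1 ran from 148 to 183.5 CPM (median 162) and from 107 to 153.5 CPM (median 123) in frontal cortex, a log2 fold change of -0.39 ± 0.0713 (SE), with library 11 in the wild-type range. Its striatal medians were 138 and 119 CPM, again at -0.39, with a wider standard error of 0.105 and library 19 lowest at 76.5 CPM. Nr1d2 had log2 fold changes of -0.29 and -0.22, with 1 of 6 and 5 of 8 libraries overlapping. In the GENCODE vM1 annotation the 3′ ends of Nr1d1 and Thra share 8.42% of the exon bases of Nr1d1 on opposite strands, those of Dbp and Sphk2 share 16.7% of Dbp, and Gm17597 covers 2.45% of Tef. The strand setting of the counting is not given in the sources used here, so reads in these stretches cannot be assigned to 1 gene. Thra had log2 fold changes of 0.07 and -0.04, and Sphk2 of 0.23 and 0.17, the opposite direction to Dbp.

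Outside the 10, the clock genes of a list of named activators and targets of ROR proteins did not share the direction of the 10, with 4 of 8 tested above 0 in frontal cortex and, in striatum, 6 of 9. Among them 0 passed the adjusted threshold in either region, and 3 and 4 had an unadjusted p under 0.05, beside 13.5% and 10.0% of all genes. The median log2 fold changes were -0.04 and 0.13, against -0.35 and -0.34 for the 10. Arntl, which encodes BMAL1, had medians of 43.2 and 52.4 CPM in wild-type and Igf2enh-/- frontal cortex and 43.4 and 55.7 CPM in striatum, with log2 fold changes of 0.27 ± 0.0622 (SE) and 0.37 ± 0.0891 and adjusted p of 0.0741 and 0.174 (edgeR). Nfil3, a repressor that competes for D-boxes, had 0.29 and 0.31, and Npas2, a partner of BMAL1, 0.04 and 0.20. Clock had 0.03 and 0.13. The E-box repressors outside the 10, Bhlhe40 and Cry2, were lower in point estimate, at -0.51 and -0.48 and at -0.20 and -0.16, and neither was called. Of 5 clock-controlled output genes 0 were called, and Usp2, a ubiquitin protease with a strong daily rhythm, had -0.29 and -0.17. Of 10 clock kinases, ligases and cofactors 0 were called, with every fold change between -0.09 and 0.17 in both regions.

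Other groups that follow the time of day or the recent state of an animal also differed by genotype in part. Rbm3, a cold-inducible RNA-binding protein, was lower in both regions, with medians of 57.5 and 39.1 CPM in wild-type and Igf2enh-/- cortices and of 55.3 and 36.1 CPM in the striata. Its log2 fold changes were -0.54 and -0.53 (adjusted p = 0.000467 and 0.00275, edgeR). Cirbp, of the same family, had -0.14 and -0.15 and was not called. Of 10 chaperone genes tested in frontal cortex 2 rose, Hsph1 (log2 fold change 0.22, adjusted p = 0.00807) and Hspa8 (0.18, adjusted p = 0.0301), and 0 of 8 in striatum. All 12 immediate-early genes, which neurons and other cells switch on within minutes of a stimulus, had fold changes below 0 in both regions, with medians of -0.63 and -0.66. None of the 12 was called, and 10 and 9 had an unadjusted p under 0.05 (edgeR), beside 13.5% and 10.0% of all genes. Fold changes below 0 made up 49.6% and 49.8% of all genes. These lists were drawn up with earlier results of these data known, so nothing is read from their counts. Arc, a synaptic immediate-early gene, was at -1.01 and -0.95, and Dusp1 at -0.68 and -0.66. Among 9 glucocorticoid-induced genes 0 were called. Above 0 were 5 of 9 in frontal cortex and 1 of 9 in striatum, with median log2 fold changes of 0.01 and -0.07. At an unadjusted p under 0.05 (edgeR) there were 4 and 3, all of them lower, beside 13.5% and 10.0% of all genes. Sgk1 was at -0.55 and -0.67, and Ddit4 at -0.54 and -0.61. Oligodendrocyte markers were also below 0 by genotype for 6 of 6 in each region, 0 of them called, with summed levels of 1488 to 1993 CPM in wild-type and 935 to 1988 CPM in Igf2enh-/- frontal cortex, and of 4627 to 10100 CPM and 4760 to 6164 CPM in striatum. Meningeal fibroblast markers were above 0 for 7 of 8 and 7 of 7, with 0 called. At an unadjusted p under 0.05 (edgeR) there were 6 of 8 in frontal cortex and 1 of 7 in striatum. Their median log2 fold changes were 0.39 and 0.24. In striatum, cortical projection neuron markers were below 0 for 6 of 6 tested, with a median of -0.32. Medium spiny neuron markers were above 0 there for 7 of 8 and choroid plexus markers for 4 of 4 (medians 0.05 and 0.89). In frontal cortex the same lists had 5 of 8 below 0, and 3 of 7 and 1 of 2 above 0. In both regions 0 of these markers were called. The part of these groups in the fold changes of the 10 was not tested.

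**Figure D2:**
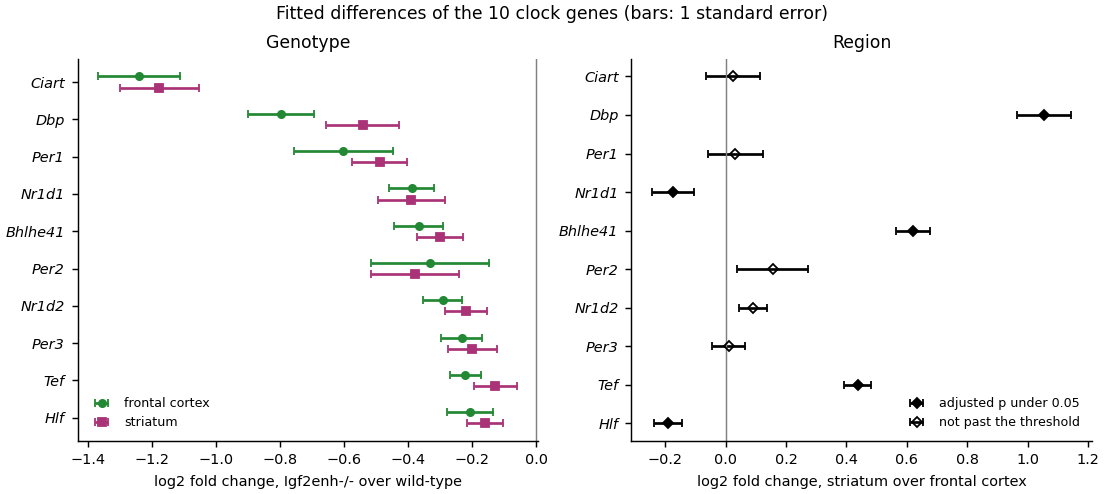
Fitted log2 fold changes with bars of 1 standard error, for genotype in each region (left) and for striatum over frontal cortex (right, filled where adjusted p is under 0.05). All genotype points lie left of 0, from Ciart at -1.24 to Tef at -0.13, and Dbp stands furthest right for region at 1.05.

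The genotype difference was compared between the regions in a model over all 27 libraries, taken as independent. The genes were chosen with their genotype fold changes in both regions known. This contrast is thus not independent of the choice, and likeness between the regions is not read from it. No member was called (edgeR, 0 at an unadjusted p under 0.05 beside 3.02% of genes, and 0 by the likelihood ratio test, DESeq2 and limma-voom), as for 0 of 13414 genes. Dbp had the largest point estimate, a difference of 0.27 between the striatal and the cortical log2 fold change, with a 95% interval from -0.09 to 0.62. For Ciart the difference was 0.06, from -0.32 to 0.44, and for Nr1d1 it was 0.00 with an interval from -0.29 to 0.29.

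The regions themselves differed, a contrast on which the genes were not chosen. Of the 10, 5 members were called (edgeR, adjusted p under 0.05), which is fewer in proportion than the 77.7% of 13414 genes called, and 3 of them were higher in striatum, as were 39.4% of all genes. Dbp was higher in striatum by 1.05 ± 0.0899 (SE) on the log2 scale, with adjusted p = 4.06e-11, and the difference held in each genotype, with means of 103 and 194 CPM in wild-type mice and 59.3 and 135 CPM in Igf2enh-/- mice. The highest cortical library, at 119.7 CPM, lay above the lowest striatal one, at 91.2 CPM, so the regions overlapped across genotypes. Bhlhe41 was higher by 0.62 ± 0.0569 (adjusted p = 1.63e-10) and Tef by 0.44 ± 0.0452 (adjusted p = 1.55e-09).

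Hlf and Nr1d1 were lower in striatum, by -0.19 ± 0.0465 (SE) with adjusted p = 0.000597 and by -0.17 ± 0.0686 with adjusted p = 0.0229 (edgeR). The call for Nr1d1 was lost with the RNA integrity number in the model (adjusted p = 0.0964), with scaling by total count (0.0506) without the 7 striatal libraries 21 to 27 (0.0697) and without cortical library 11, and its sign was below 0 in all 39 fits. Dbp, Bhlhe41, Tef and Hlf were called in all 39. Per1, Per3 and Ciart were level between the regions, with log2 differences of 0.03, 0.01 and 0.02 and 95% intervals from -0.16 to 0.22, from -0.10 to 0.12 and from -0.16 to 0.21. Medium spiny neuron, cortical neuron and oligodendrocyte markers also separate the regions, as the tissue labels imply, and oligodendrocyte genes were higher in striatum for 6 of 6. The part of cell composition in the regional differences was not tested.

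The sexes were compared within each region, again on a contrast that did not choose the genes. No member was called for sex (edgeR, and 0 by the likelihood ratio test, DESeq2 and limma-voom), beside 0.0431% of genes in frontal cortex and 0.0432% in striatum. At an unadjusted p under 0.05 there was 1 in each region, Bhlhe41 in frontal cortex, higher in males by 0.20 on the log2 scale, and Per3 in striatum, higher in males by 0.18, beside 7.56% and 10.8% of all genes. In striatum every female library except 25 was among libraries 13 to 20. Every male library except 19 and 20 was among libraries 21 to 27, whose trimming was recorded in a different form. Sex and library set were thus largely confounded there. With the form of trimming record in the model, the median over the members moved from 0.03 to -0.02, with 0 called. Genes at an unadjusted p under 0.05 rose from 1496 to 2955.

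The genotype difference was wider in males than in females for 8 of 10 members in frontal cortex and 9 of 10 in striatum, with differences of mean log2 (CPM + 0.5), where 48.4% and 51.9% of all genes had an interaction term below 0. In striatum the medians over the members were -0.16 in females (4 Igf2enh-/-, 3 wild-type) and -0.38 in males (4 and 4). Ciart differed by -0.88 in females and -1.38 in males, Per3 by -0.04 and -0.34, Nr1d2 by -0.07 and -0.35, Hlf by -0.03 and -0.28, and Tef by 0.02 and -0.25. The exception was Per1, at -0.64 in females and -0.38 in males. None of these differences between the sexes held up over all genes (edgeR genotype by sex term, 0 of 10 called in either region, all adjusted p in striatum 0.9998, where 0 of 13875 genes were called, and 0.0215% of genes called in frontal cortex). At an unadjusted p under 0.05 there were 5 of 10 in striatum, the 5 genes just named apart from Per1, beside 2.56% of all genes, and 0 of 10 in frontal cortex, beside 6.36%. The striatal count of 5 depended on single libraries. It was 1 without library 16, 2 without library 15, and 3 without library 14, 19, 22 or 25, and 6 without library 17 or 20. All striatal wild-type females were among libraries 13 to 20, and most males among 21 to 27, so sex was largely confounded with library set. With the form of trimming record in the model, 9 of 10 interaction terms were below 0 and 5 had an unadjusted p under 0.05. Per2 had the widest split in frontal cortex, at -0.09 in females and -0.66 in males, with an interaction of -0.56 ± 0.345 (SE).

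**Figure D3:**
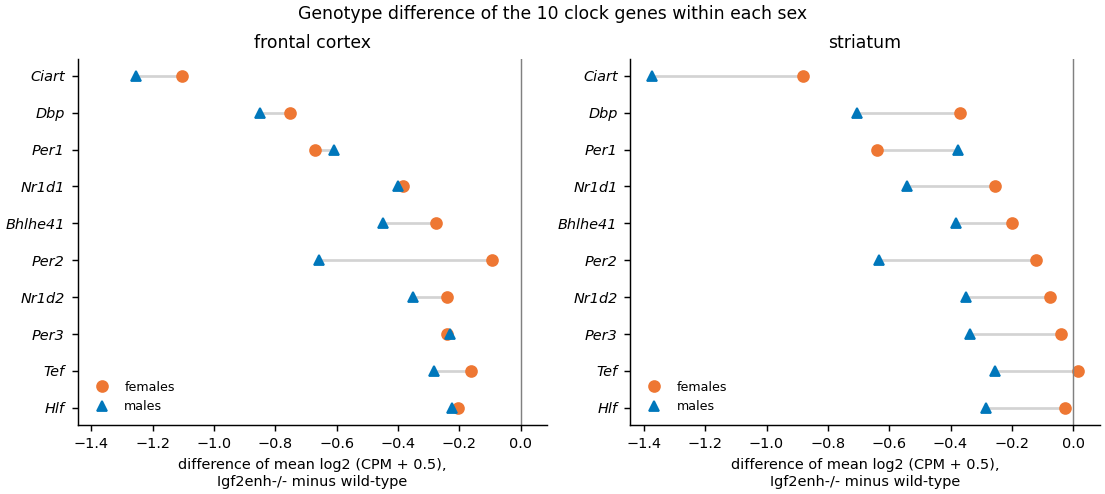
Difference of mean log2 (CPM + 0.5), Igf2enh-/- minus wild-type, for females (circles) and males (triangles) in each region, with a line between the 2 sexes of a gene. In striatum the males lie left of the females for all members except Per1, with medians of -0.38 and -0.16.

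Libraries of 1 genotype also differed among themselves. This spread is apart from the difference between genotype means. It still enters the genotype tests known when the genes were chosen, so it is not independent of the choice. With values centred on genotype, Ciart, Nr1d2 and Bhlhe41 correlated with Dbp in frontal cortex, and of these only Ciart still passed once sex was centred as well. With log2 (CPM + 0.5) centred on the genotype mean, Pearson's r with Dbp over the 12 cortical libraries was 0.92 for Ciart (Spearman's rho 0.909, permutation p = 1e-05, the smallest that 100000 resamples can give, adjusted p = 0.00018 over 18 pairs). For Nr1d2 r was 0.869 (rho 0.916, permutation p = 0.00086, adjusted p = 0.00516), and for Bhlhe41 it was 0.815 (rho 0.881, permutation p = 0.00157, adjusted p = 0.00706). All permutation tests were two-sided. Libraries were permuted within genotype, or within genotype and sex where values were centred on both. Without libraries 1 and 3, the furthest from the median of Dbp, r was 0.933, 0.750 and 0.834 for the 3 genes. Ciart and Dbp were ordered alike in each genotype, with r of 0.963 among wild-type and 0.981 among Igf2enh-/- cortices. Tef had r of 0.720 (rho 0.846) with adjusted permutation p of 0.0505 for r and 0.0077 for rho, and r was 0.599 without the same 2 libraries. With centring on sex as well, a setting chosen after seeing the data, r was 0.907 for Ciart, 0.849 for Nr1d2 and 0.806 for Bhlhe41. Adjusted permutation p was 0.0139, 0.0661 and 0.0674 in the same order. Here libraries were permuted within groups of 3, which allows fewer arrangements. The higher p-values thus do not show that sex accounts for the correlations of Nr1d2 and Bhlhe41. Cortical Dbp also varied with the tissue taken, with r of 0.642 against the summed cortical projection neuron markers and 0.615 against the oligodendrocyte markers over 12 libraries. Against the meningeal fibroblast markers r was -0.505. The part of these tissue differences in the correlations was not tested.

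In striatum Tef passed by both measures and Nr1d1 by Pearson's r alone. Tef had r of 0.820 (rho 0.807, permutation p = 0.00014, adjusted p = 0.00126), which was 0.760 without libraries 15 and 19, and within libraries 13 to 20 and 21 to 27, whose trimming was recorded in different forms, it was 0.960 and 0.579. Nr1d1 had r of 0.707 (rho 0.604, permutation p = 0.00791, adjusted p = 0.0285 for r and 0.0686 for rho). Its r depended on the libraries left out, at 0.391 without libraries 15 and 19 and 0.810 without libraries 15 and 20. Ciart had r of 0.571 (rho 0.593, permutation p = 0.0276, adjusted p = 0.0709) and 0.352 without libraries 15 and 19. With sex centred too, r was 0.774 for Tef, 0.731 for Ciart and 0.640 for Nr1d1, with adjusted permutation p of 0.0325, 0.044 and 0.0907. Without libraries 15 and 20, Hlf and Nr1d1 had r of 0.753 and 0.810 (adjusted permutation p = 0.0407 and 0.0118), while r was 0.228 for Bhlhe41, -0.331 for Per1 and -0.00999 for Per2. Striatal Dbp also varied with the tissue taken, with r of 0.678 against the summed medium spiny neuron markers and -0.568 against the cortical ones over 15 libraries, and their part in the correlations was not tested.

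With all libraries, the period genes had the lowest correlations with Dbp in both regions. Per1 had r with Dbp of 0.0365 and -0.0195 (permutation p = 0.922 and 0.950), Per2 of 0.0785 and 0.152 (0.823 and 0.631), and Per3 of 0.391 and -0.00223 (0.267 and 0.992). In frontal cortex this differed by genotype in point estimate, with r of 0.617, 0.885 and 0.773 for Per1, Per2 and Per3 among the 6 wild-type libraries and of -0.147, -0.296 and 0.207 among the 6 Igf2enh-/- libraries, a difference that was not tested. Without libraries 1 and 3, both Igf2enh-/-, the pooled cortical r was 0.367, 0.333 and 0.341, above that of Hlf at 0.177. Without striatal libraries 15 and 19, Hlf at 0.151 was likewise below Per2 at 0.222. The other 6 genes had r with Dbp above 0 in each region. These p-values do not show that the period genes are unrelated to Dbp.

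**Figure D4:**
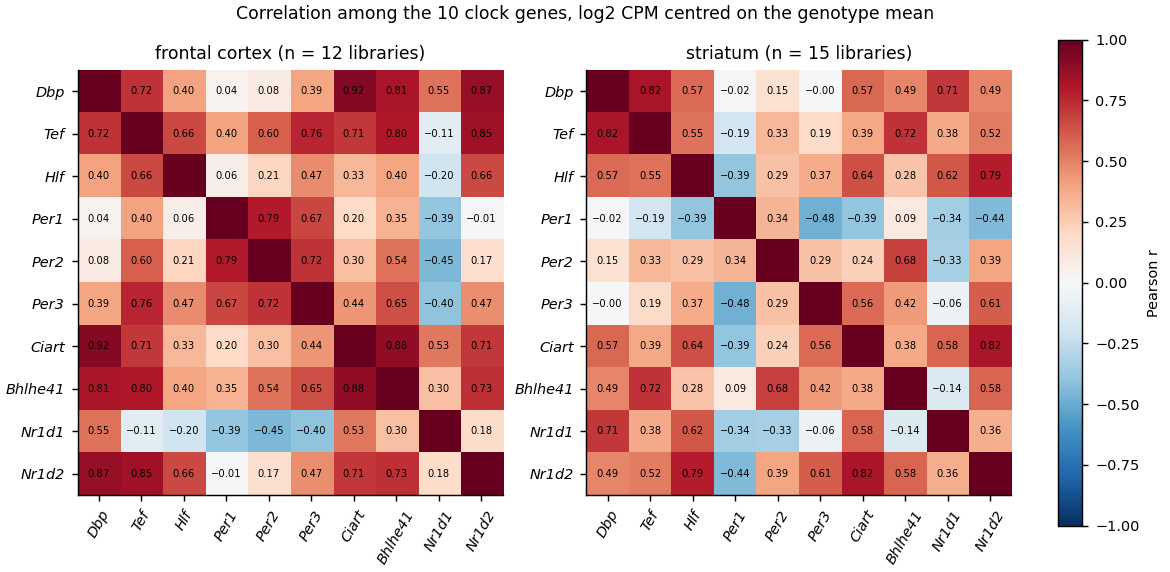
Pearson's r for every pair of the 10 genes in frontal cortex (left, 12 libraries) and striatum (right, 15 libraries), on log2 (CPM + 0.5) centred on the genotype mean. Dbp and Ciart reach 0.92 in frontal cortex, and Per1 has values near 0 or below it with Nr1d1 and Nr1d2 in both regions.

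Over all 45 pairs r had a median of 0.465 for the cortical and 0.378 for the striatal libraries, and 39 and 34 pairs were above 0. With adjustment over 90 pairs, 8 passed in frontal cortex, every one of them among Dbp, Tef, Ciart, Bhlhe41 and Nr1d2. In striatum 5 passed, among them Ciart with Nr1d2 (r = 0.817, rho 0.807, permutation p = 0.00055, adjusted p = 0.0099, 0.743 without 2 libraries) and Hlf with Nr1d2 (r = 0.786, rho 0.843, permutation p = 0.00043, adjusted p = 0.00967, 0.713 without 2 libraries). Per1 and Per2 had r of 0.791 in frontal cortex (rho 0.776, permutation p = 0.0118, adjusted p = 0.0665, 0.656 without 2 libraries) and 0.341 in striatum. Nr1d1 and Nr1d2, the REV-ERB pair, had r of only 0.182 and 0.365, with permutation p of 0.660 and 0.135. The same counts were not made for pairs of other genes. They thus do not show that these genes vary together more than other genes do. With Dbp alone, 3.57% of all genes in frontal cortex and 20.0% in striatum varied at an unadjusted p under 0.05 (edgeR). The part of shared dissection in the pairs was not tested.

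Per1 correlated with the immediate-early genes instead, a comparison made after the values of Per1 were seen. Against the mean log2 level of the 12 immediate-early genes, Per1 had r of 0.865 in frontal cortex (rho 0.860, permutation p = 0.00392, adjusted p = 0.0392 for r and 0.0752 for rho over 20 tests, 0.722 without the 2 furthest libraries). In striatum r was 0.909 (rho 0.768, permutation p = 0.00015, adjusted p = 0.003 for r and 0.0418 for rho, 0.934 without 2 libraries). By r it was the 1 member of 10 that passed in each region, and by rho it passed in striatum but not in frontal cortex. The share of all genes that correlate with this mean was not counted. These values thus do not show that Per1 follows it more than other genes do. They were centred on genotype but not on sex, and the part of tissue composition was not tested. Dbp had r of -0.156 and 0.0381 with the same mean, Ciart of -0.120 and -0.402, and Per2 of 0.562 and 0.274 (permutation p = 0.125 and 0.334). Per1 is itself known as an early-response gene as well as an E-box target, and its promoter window above carries 1 E-box.

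**Figure D5:**
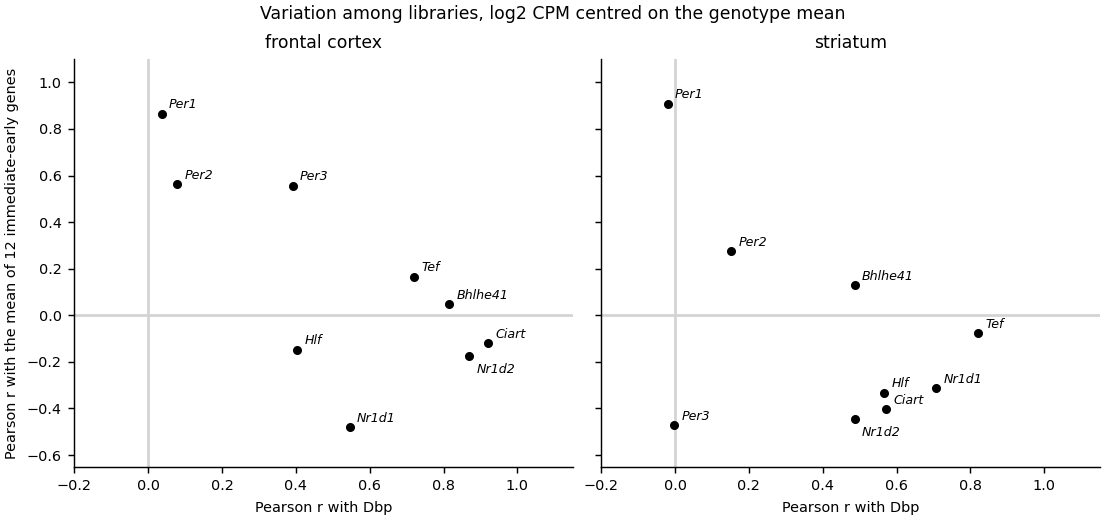
Pearson's r of each of the 9 other genes with Dbp (x axis) against its r with the mean of 12 immediate-early genes (y axis), in each region. Per1 sits at the top left in both, near 0 for Dbp and at 0.865 and 0.909 for the immediate-early mean, while Ciart, Tef and Nr1d2 lie to the right.

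Fitted across all genes with the log2 level of Dbp as a term beside genotype and sex, no other member passed the adjusted threshold in frontal cortex (edgeR, 0 of 9, with 0 of 13935 genes passing) or in striatum (0 of 9, with 0.00721% of 13874 genes passing). At an unadjusted p under 0.05 there were 4 of 9 in frontal cortex, beside 3.57% of genes, and 6 of 9 in striatum, beside 20.0%. Other tools gave more in places, with 1 of 9 by the likelihood ratio test, 1 by DESeq2 and 0 by limma-voom in frontal cortex, where they called 2, 1 and 0 of all genes, and 2, 4 and 0 in striatum, where they called 403, 610 and 2 of all genes. Ciart rose by 1.11 ± 0.176 (SE) on the log2 scale for each log2 unit of Dbp in frontal cortex (edgeR adjusted p = 0.160) and by 0.84 ± 0.190 in striatum (edgeR adjusted p = 0.0848). Slopes of the other members that had an unadjusted p under 0.05 were smaller, from 0.29 for Tef to 0.57 for Bhlhe41 in frontal cortex and from 0.32 for Hlf to 0.64 for Nr1d1 in striatum. Per1 had slopes of -0.01 ± 0.416 and -0.09 ± 0.199. Medium spiny neuron markers also rose with Dbp in striatum, 8 of 8 above 0 and 7 at an unadjusted p under 0.05 (edgeR). Their median slope was 1.03, against 0.36 for the 9 members. Cortical projection neuron markers fell there, 6 of 6 below 0 with a median of -2.49. The part of tissue composition in the slopes was not tested. Without striatal libraries 15 and 20, Tef, Hlf and Nr1d1 passed, with slopes of 0.50, 0.43 and 0.90 and adjusted p of 0.0423, 0.0457 and 0.0283, where 5.41% of 13917 genes passed. The 1 gene that passed in striatum with all libraries was Usp2, the clock-controlled protease, with a slope of 0.52 ± 0.069 (adjusted p = 0.0166).

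Ranked by mean r with Dbp over both regions, on values centred on each genotype by sex group, Ciart was at place 4 among 13413 genes, with Nr1d2 at place 19, Tef at 20, Bhlhe41 at 97, Nr1d1 at 257 and Hlf at 823. Per3, Per1 and Per2 were at places 3578, 5910 and 6665. The 5 genes outside the members with the highest mean r were Phyhip (0.851), Pou3f1 (0.840), Tesc (0.831), Arhgef17 (0.818) and Glyctk (0.802), and the 5 lowest were Pkib (-0.804), Slc18b1 (-0.795), Kif3a (-0.789), Bcl2l13 (-0.775) and Gab2 (-0.759). These ranks are a description over 12 and 15 libraries, which share their library and dissection.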

How the data were processed

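RNA-seq was measured in 27 libraries of mouse frontal cortex (12) and striatum (15). Low-quality bases were removed by the authors in Trim Galore 0.5.0, and after STAR alignment to GRCm38 they deposited raw counts per Ensembl gene, 1 table per region. The strand setting is not given in the sources used here. All sample columns were used. Groups, sexes and library numbers come from the labels.

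Each region was fitted alone with genotype and sex, and both regions together for region, in edgeR 4.0.16 (TMM, quasi-likelihood test, R 4.3.3) over genes at 1 CPM or more in each library fitted, with Benjamini-Hochberg adjustment over all genes and a threshold of 0.05. This quasi-likelihood test replaces the likelihood ratio test of the study's methods, which is an alternative here beside DESeq2 1.42.0 and limma-voom 3.58.1. Intervals are 95% intervals from the standard error and a t distribution with the residual degrees of freedom. Library totals of 23686945 to 33926904 counts set the precision. Correlations used log2 (CPM + 0.5) centred on the genotype mean, with 100000 permutations within genotype. Where sex was centred too, the permutations ran within genotype and sex. The scripts were tested on simulated data. Promoter windows are RefSeq, GRCm38.p6, and exon lengths are GENCODE vM1.

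The members and lists were chosen with earlier results of these data known. Named beside the 10 members are up to 4 genes per list by smallest genotype p averaged over the regions, the 5 genes most and least like Dbp, and Igf2.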

Additional observations from a re-analysis of the deposited data

Results flagged for a closer look

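In Igf2enh-/- striatum the level of Hlf in library 19 lay apart from the other 7 libraries. It was 214.8 CPM where the others ran from 247.3 to 267.3 CPM, and on the log2 (CPM + 0.5) scale the gap to the nearest library was 0.645 of the whole range, above Dixon's 95% critical value for 8 libraries. This was 1 of 40 groups tested (10 genes in 4 groups), and chance puts about 1 in 20 groups past the value. The same library was the lowest of its group for 6 of the 10 members (Dbp, Tef, Hlf, Ciart, Nr1d1 and Nr1d2) and for the summed medium spiny neuron markers, at 4538 CPM.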

How the results depend on the processing

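The members lower in Igf2enh-/- mice stayed at 10 of 10 in both regions under every alternative run, and the median log2 fold change lay between -0.40 and -0.31 in frontal cortex and between -0.38 and -0.28 in striatum when each library was left out in turn. Counts of called members changed more. For genotype they were 3 and 1 (frontal cortex and striatum), and 8 and 4 with the likelihood ratio test, 7 and 5 with DESeq2, 5 and 2 with filterByExpr, and 9 and 2 with no filter. Calls over all genes rose as well, from 53 and 5 to 232 and 56, 247 and 112, 70 and 13, and 459 and 10 in the same order. With the RNA integrity number in the model, 2 and 1 members and 29 and 6 of all genes were called. The cortical call of Nr1d1 was lost there (edgeR adjusted p = 0.0711). Leaving out 1 library gave 2 to 5 in frontal cortex (5 without library 1 or 3, and 2 without library 4, 6, 8, 9, 10 or 12) and 1 to 2 in striatum (2 without library 26). For region the count of 5 ran from 4 to 6. With no filter the genotype by sex term gave 1 member in frontal cortex, Per2. Variation with Dbp, at 0 in both regions, gave 1 and 2 with the likelihood ratio test, 1 and 4 with DESeq2 and 5 and 2 without genotype and sex in the model, 1 in frontal cortex with no filter, and in striatum 0 to 1 with 1 library left out (1 without library 15) and 3 without libraries 15 and 20. Without genotype in the model, the slope takes in the genotype difference known when the genes were chosen. Nothing is read from the 5 and 2, where 102 of 13935 and 31 of 13874 genes were called. Of the 5 correlations with Dbp that passed, 2 (cortical Ciart, striatal Tef) still passed when centred on genotype and sex, and striatal Ciart was added, which makes 3. The settings without libraries 15 and 20 and with sex centred were chosen after seeing the data, and the cause of these changes was not tested. No paired analysis was possible because the library numbers are unique to each sample and the labels do not tie libraries of the 2 regions to a mouse. Depth was at least 23.7 reads per CPM, so the lowest member, Ciart, still had reads in every library.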
